A study of Mus musculus with 9 samples.

Results

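Receptor tyrosine kinases are cell surface receptors that carry signals for growth, survival and movement, and 10 of their genes were examined for binding of ZEB1 in mouse breast cancer cells treated with eribulin. The genes were Egfr, Erbb2, Erbb3, Met, Axl, Igf1r, Fgfr1, Fgfr2, Ddr1 and Epha2. A ZEB1 peak belonged to a gene when its centre lay inside the gene, or when the nearest boundary (start or end) of any protein-coding gene within 50 kb was that gene's. This gave 43 of the 23623 consensus peaks, spread over 9 genes, and Fgfr2 had none. Of the 43 peaks, 35 passed the filter on low counts and were tested. Peak positions are in GRCm38, counted from 1, and distances run from the 5′ end of the gene to the centre of the peak. Nearness to a gene does not make it a target of the peak. The peaks not tested were 3 at Epha2 and 1 each at Egfr, Erbb3, Met, Igf1r and Ddr1.

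The measurement was CUT&RUN, in which an antibody tethers a nuclease to a chromatin protein and the DNA cut loose around it is sequenced. The antibody was against ZEB1, a zinc-finger repressor of epithelial genes. The cells were PB3, a line labelled Er-/Pr-/Her2-, named PB3-Parental when untreated and PB3_ERI when treated with 300 nM eribulin, an inhibitor of microtubule growth. There were 2 libraries each for untreated control, 24 h, 48 h and 72 h, and 1 IgG library from untreated cells that has no counts here. All groups are 1 cell line in culture, and the labels do not say whether libraries of a group came from separate cultures. Binding data hold no expression, so the receptor status on the label was not checked here.

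In many of these receptors a ligand brings 2 chains together, the chains phosphorylate each other, and adaptor proteins then start the MAP kinase and PI3 kinase cascades. Egfr, Erbb2 and Erbb3 belong to the epidermal growth factor receptor family, in which Erbb2 has no ligand of its own and Erbb3 has a weak kinase. Met binds hepatocyte growth factor and Axl binds Gas6, and both are known for cell scattering and for the mesenchymal state. Epha2 binds ephrins on neighbouring cells, and Ddr1 binds collagen.

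Depth was modest and replicates were close. Totals in the peaks ran from 326944 to 765015 counts per library, with a median of 10 to 24 per peak. Between the libraries of a pair, the chi-square per degree of freedom ran from 0.931 (control) to 1.06 (48 h), where 1 is counting error alone, and between groups it ran from 1.12 to 2.28. The totals differ within every pair, and both libraries were kept. The p-values rest on the spread within those pairs, which may be technical. Signal is given as CPM, the count per library total in tested peaks after TMM scaling, so only changes relative to the other peaks are measured. Log2 fold changes are given as plain signed values, and a peak is called at an edgeR adjusted p below 0.05.

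ZEB1 is known to bind E-boxes with the letters CAGGTG, and the promoters are shown because few of these genes carried a peak at their start. RefSeq windows of GRCm38.p6, 250 bases before to 50 after a start, were matched for 8 genes with 11 windows. A consensus peak overlapped 3 windows, those of an internal start of Ddr1 (277 bases of overlap), of Erbb2 (147) and of Igf1r (18). Capitals mark CACCT or AGGTG, the shorter core of that motif, and the whole of CAGGTG or CACCTG where it occurs.
Ddr1 internal start (chr17:35700541-35700840, minus strand): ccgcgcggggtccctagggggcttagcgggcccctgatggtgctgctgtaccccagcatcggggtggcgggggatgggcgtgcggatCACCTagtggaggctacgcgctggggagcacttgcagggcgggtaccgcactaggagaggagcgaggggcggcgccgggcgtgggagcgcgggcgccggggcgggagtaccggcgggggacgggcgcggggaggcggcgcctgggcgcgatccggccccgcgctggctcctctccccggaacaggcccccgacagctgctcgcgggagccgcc
Erbb2 (chr11:98412234-98412533, plus strand): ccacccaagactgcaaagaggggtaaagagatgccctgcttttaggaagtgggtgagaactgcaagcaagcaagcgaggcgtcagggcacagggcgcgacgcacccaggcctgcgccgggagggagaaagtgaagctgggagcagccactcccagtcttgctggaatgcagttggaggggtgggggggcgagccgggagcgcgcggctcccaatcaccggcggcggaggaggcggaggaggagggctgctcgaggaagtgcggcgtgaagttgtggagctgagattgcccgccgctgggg
Igf1r (chr7:67952007-67952306, plus strand): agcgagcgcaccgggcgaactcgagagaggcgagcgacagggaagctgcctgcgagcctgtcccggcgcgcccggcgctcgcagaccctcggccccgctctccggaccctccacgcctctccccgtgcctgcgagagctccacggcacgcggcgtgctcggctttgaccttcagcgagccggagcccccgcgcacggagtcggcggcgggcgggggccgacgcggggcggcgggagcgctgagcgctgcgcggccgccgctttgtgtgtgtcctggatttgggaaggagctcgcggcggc

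The E-box was found in 2 other windows, which no peak overlapped. They are shown as the windows that hold the letters.
Ddr1 second internal start (chr17:35701995-35702294, minus strand): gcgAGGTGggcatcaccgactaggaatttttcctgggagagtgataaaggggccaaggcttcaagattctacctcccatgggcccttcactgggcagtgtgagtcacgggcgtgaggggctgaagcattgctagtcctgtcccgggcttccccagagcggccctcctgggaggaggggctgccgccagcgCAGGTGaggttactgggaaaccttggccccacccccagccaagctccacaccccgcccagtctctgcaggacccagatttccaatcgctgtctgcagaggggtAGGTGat
Met (chr6:17463707-17464006, plus strand): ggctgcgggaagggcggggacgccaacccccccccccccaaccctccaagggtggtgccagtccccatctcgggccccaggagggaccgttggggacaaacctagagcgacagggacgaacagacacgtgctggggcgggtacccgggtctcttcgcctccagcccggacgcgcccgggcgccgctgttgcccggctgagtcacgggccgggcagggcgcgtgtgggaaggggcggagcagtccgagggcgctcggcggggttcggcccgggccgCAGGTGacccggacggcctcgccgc

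On both strands CAGGTG was in 2 of 11 windows and in 19.7% of 21263 promoter windows of protein-coding genes. The variant CAGGTA was in none of the 11 and in 11% of all windows. The core CACCT, which also lies within CAGGTG, was in 5 of 11 and in 51.4% of all. None of the 3 windows with a peak held CAGGTG or CAGGTA, which says only that these letters are not in those 300 bases. The windows were searched for letters alone, and a match is not a shown site.

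Most of these peaks lay away from gene boundaries. Peak centres were inside the receptor gene in 29 cases and outside it in 14, and 6 of 43 (14%) lay within 1 kb of a protein-coding gene's boundary, against 28.3% of all consensus peaks. The rule itself favours long genes, so this is a description. Whether a peak inside a gene is exonic or intronic was not assigned here. Outside a gene, the farthest member lay 35.4 kb from Egfr with a mean of 121 CPM, and the nearest peak beyond the 50 kb limit lay 53.5 kb from Met with 85.9 CPM. The median peak was 292 bp long with a mean of 28.1 CPM, against 347 bp and 32.1 CPM over all peaks.

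Summed over its peaks and divided by their length, ZEB1 signal in untreated cells was highest at Axl and lowest at Ddr1 among the genes with more than a few counts. Axl held 120 and 151 CPM per kb in the 2 control libraries, Fgfr1 127 and 125, Met 124 and 114, and Egfr 107 and 114. Igf1r followed with 105 and 98.9 CPM per kb, Epha2 with 70.4 and 75.9, Erbb2 with 70.8 and 70.3, and Ddr1 with 61.2 and 60.8. The control libraries of Axl overlapped those of Fgfr1 and Met, and those of Epha2 overlapped those of Erbb2. Erbb3 was left out of this order because its single peak spans 20 bp and held between 1 and 5 counts per library. The sums include peaks that were not in the control list, so the order depends in part on the treated lists. Among these, Ddr1 +4.1 kb (9.63 CPM per kb in the controls) and Epha2 +10.4 kb (30.2) lower the value of their gene. Fgfr1 rests on 1 peak of 195 bp that was in the 24 h list alone. The Erbb2 value includes a peak inside Mien1, past the end of Erbb2, with 52.8 CPM per kb in the controls. The peak at the Erbb2 start held 105.

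The authors' deposited peak lists (a single list for each group, with no replicate) held more of these peaks at 24 h than in the control. The control list covered 27 of the 43 peaks (62.8%, against 78.7% of all consensus peaks), the 24 h list 32 (74.4% against 63%), the 48 h list 28 (65.1% against 60.2%) and the 72 h list 17 (39.5% against 51.6%). All 4 lists held 14 peaks (32.6%, against 34.7% of all). Fold over IgG, as the authors' deposited lists give it, ran from 3.41 to 18.8 in the control list, and the highest control fold was at the peak 69.3 kb into Igf1r. Depth differed too: the 24 h libraries held 602187 and 747259 counts, the control libraries 372896 and 672582, and the 72 h libraries 441521 and 326944. Its part in the length of the lists was not tested. The lists come from these same libraries, so they are no separate evidence for the counts.

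**Figure D1:**
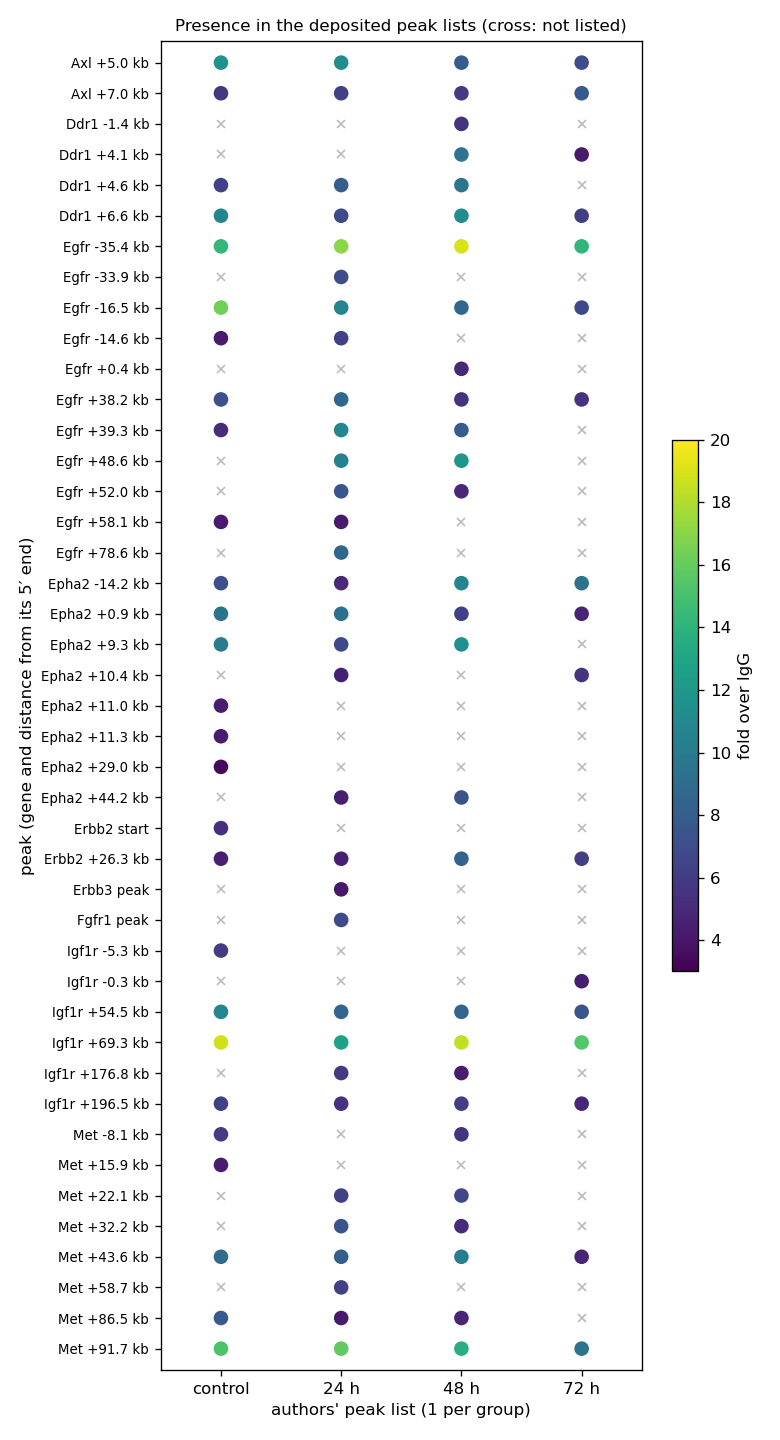
Presence of the 43 receptor tyrosine kinase peaks (rows, named by gene and distance from its 5′ end) in the authors' peak lists of the 4 groups (columns), coloured by fold over IgG, with a cross where a peak is not listed. The 24 h column holds 32 peaks and the 72 h column 17.

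Egfr, the receptor of epidermal growth factor, had 11 peaks, the most of the 10 genes, and they moved in both directions. The peak 16.5 kb upstream (chr11:16735357-16736005) held 140 and 112 CPM untreated, against 109 and 115 after 24 h, 78.1 and 78.7 after 48 h, and 64.7 and 65.9 after 72 h. Libraries at 48 and 72 h all lay below both controls, and those at 24 h overlapped the control range. Signal there fell by 0.64 on the log2 scale at 48 h (SE 0.191, edgeR adjusted p = 0.0171) and by 0.90 at 72 h (SE 0.233, adjusted p = 0.00517), and the change at 24 h was -0.12 (adjusted p = 0.717). Averaged over the 3 times the fall was 0.55 (SE 0.162, adjusted p = 0.0104), with libraries that overlap because of those at 24 h. The authors' deposited fold over IgG at this peak was 16.3, 10.7, 8.59 and 6.72 in the control, 24, 48 and 72 h lists.

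Inside Egfr, 3 peaks were called higher in at least 1 comparison. The peak 48.6 kb into the gene (chr11:16800568-16800944) held 22 and 21.4 CPM untreated, against 44.3 and 43.7 after 24 h, 54.2 and 70.1 after 48 h, and 71.7 and 25.1 after 72 h. All 6 treated libraries lay above both controls, though the second library at 72 h did so by little. It rose by 1.02 at 24 h (SE 0.349, adjusted p = 0.0403), 1.49 at 48 h (SE 0.321, adjusted p = 6.89e-04), 1.25 at 72 h (SE 0.379, adjusted p = 0.0174) and 1.25 over the mean of the times (SE 0.297, adjusted p = 0.00127). It is 1 of 2 receptor peaks called higher at all 3 times (the other is Epha2 +10.4 kb), where 1.76% of all tested peaks were. Both are in the consensus through treated lists alone, so they were chosen partly for being higher after treatment. The authors' deposited lists held it at 24 and 48 h, and not in the control or at 72 h.

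A neighbouring pair of peaks, with centres 1.1 kb apart, had its highest group mean at 24 h. The peak 39.3 kb into Egfr (chr11:16791292-16791668) held 30.3 and 44.3 CPM untreated, against 80.1 and 90 after 24 h, 45 and 58.2 after 48 h, and 39.3 and 34.5 after 72 h. It rose at 24 h (1.12, SE 0.249, adjusted p = 9.19e-04), and the changes at 48 h (0.37, adjusted p = 0.418) and 72 h (-0.08, adjusted p = 0.919) did not pass. The direct comparison of 72 h with 24 h showed a fall of 1.20 (-1.20, SE 0.279, adjusted p = 0.00515). The peak 38.2 kb into Egfr held 35.8 and 21.4 CPM untreated, against 49.5 and 54.6 after 24 h, 33.1 and 51.3 after 48 h, and 25.4 and 34.5 after 72 h. It rose at 24 h (0.97, SE 0.311, adjusted p = 0.0263), and its 72 h libraries overlapped the controls.

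The peak 35.4 kb upstream of Egfr, the gene's highest by the mean of the 8 libraries but below the -16.5 kb peak in both controls, held 85.3 and 110 CPM in the controls and 120 to 145 CPM in the treated libraries. No treated library overlapped the controls, but the mean change of 0.34 (SE 0.157, adjusted p = 0.121) did not pass. The upstream peak at 16.5 kb also fell between 24 and 72 h (-0.78, SE 0.227, adjusted p = 0.0286). The remaining Egfr peaks had changes that did not pass in any comparison, and the peak 0.4 kb inside the start held at most 11.9 CPM and was not tested.

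Summed over its 11 peaks, Egfr held 402 and 430 CPM untreated, 570 and 565 after 24 h, 437 and 477 after 48 h, and 423 and 361 after 72 h. The sum was thus highest in both 24 h libraries, and its 72 h libraries lay around the controls; sums over the chosen peaks carry no test.

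Most of these Egfr calls ended when a library was left out, which leaves its group with 1 library, while the size of the change mostly stayed. At +48.6 kb the 24 h change was 1.01 to 1.04 without either control or either 24 h library (adjusted p = 0.0968 without control replicate 1, 0.279 without control replicate 2, 0.107 and 0.132 without 24 h replicates 1 and 2). Without control replicate 2 it was 1.47 at 48 h (0.0586), 1.23 at 72 h (0.152) and 1.23 for the mean (0.107). The 72 h rise there rests on a single library: without 72 h replicate 1 the change was 0.21 (0.880), and the mean was 0.91 (0.0612).

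At -16.5 kb the change from 24 to 72 h was -0.76 to -0.82 without 24 h replicate 1 (0.0701) or 2 (0.121) or 72 h replicate 1 (0.193) or 2 (0.131). At 48 h it was -0.52 without control replicate 1 (0.151), -0.83 without control replicate 2 (0.0531), and -0.63 and -0.64 without 48 h replicates 1 and 2 (0.0946 and 0.0563). At 72 h it was -0.89 without 72 h replicate 1 (0.0814), and the mean was -0.44 and -0.75 without control replicates 1 and 2 (0.161 and 0.0528). At +38.2 kb the 24 h change was 0.56 without control replicate 2 (0.509), and 1.04 and 0.90 without 24 h replicates 1 and 2 (0.0546 and 0.158). The rise at +39.3 kb at 24 h held without each library in turn. Its change from 24 to 72 h was -1.11 without 24 h replicate 2 (0.0537), -1.32 without 72 h replicate 1 (0.0621) and -1.12 without 72 h replicate 2 (0.0696).

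**Figure D2:**
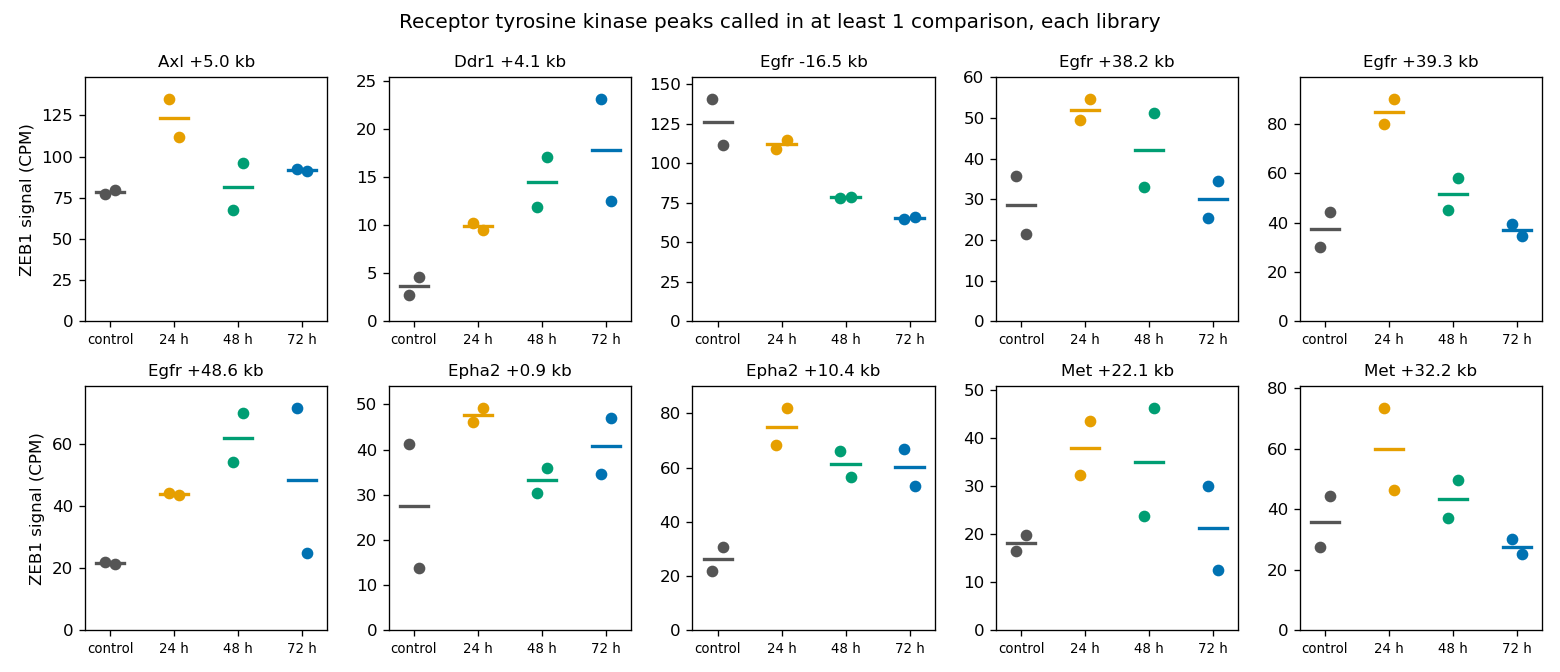
ZEB1 signal in CPM (y axis, from 0) in each library (points) and the mean of each group (lines) at the 10 receptor tyrosine kinase peaks called in at least 1 comparison. Egfr -16.5 kb steps down from 140 and 112 CPM in the controls to 64.7 and 65.9 at 72 h, and Epha2 +10.4 kb stays above its controls at every time.

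Erbb2, the gene of HER2, had 2 peaks, and Erbb3, its usual partner, had 1 with few counts. The peak at the Erbb2 start (chr11:98412387-98412571), whose promoter letters stand above, held 22 and 16.8 CPM untreated, against 8.53 and 16.4 after 24 h, 13.2 and 20.5 after 48 h, and 9.25 and 12.5 after 72 h. The 24 h and 72 h libraries lay below both controls and the 48 h libraries overlapped them. Its change over the mean of the times was -0.50 (SE 0.418, adjusted p = 0.423). The second peak lies 1.05 kb past the end of Erbb2, inside Mien1, so it cannot be given to Erbb2 alone. It held 16.5 and 21.4 CPM untreated, against 23.9 and 28.6 after 24 h, 25.1 and 29.1 after 48 h, and 37 and 47.1 after 72 h. Its change at 72 h was 1.06 (SE 0.395, adjusted p = 0.0608) and did not pass. The peak 166 bp from the boundary of Erbb3 was in the 24 h list alone and held 1.53 to 8.53 CPM.

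Met, the receptor of hepatocyte growth factor, had 8 peaks, 7 of them inside the gene. The peak 22.1 kb into the gene (chr6:17485353-17485644) held 16.5 and 19.9 CPM untreated, against 32.4 and 43.7 after 24 h, 23.8 and 46.2 after 48 h, and 30 and 12.5 after 72 h. It rose at 24 h (1.04, SE 0.370, adjusted p = 0.0487), just inside the threshold. The 72 h libraries lay on either side of the controls. The peak 32.2 kb into the gene (chr6:17495389-17495666) held 27.5 and 44.3 CPM untreated, against 73.3 and 46.4 after 24 h, 37 and 49.6 after 48 h, and 30 and 25.1 after 72 h. Its changes from control did not pass, while from 24 to 72 h it fell by 1.06 (SE 0.333, adjusted p = 0.0442). The authors' deposited lists held both peaks at 24 and 48 h and not in control or at 72 h. Both are thus chosen partly for being high at those times.

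The pair of highest Met peaks sits toward the end of the gene. Summed over its 8 peaks, Met held 349 and 323 CPM untreated, 394 and 330 after 24 h, 310 and 349 after 48 h, and 243 and 245 after 72 h, so both 72 h libraries were the lowest. The peak 91.7 kb in held 118 and 97.8 CPM untreated, against 104 and 87.3 after 24 h, 76.7 and 75.3 after 48 h, and 67 and 75.3 after 72 h. All libraries at 48 and 72 h lay below both controls, but the change over the mean of the times, -0.40 (SE 0.170, adjusted p = 0.0914), did not pass. At +22.1 kb the 24 h change was 0.95 without control replicate 1 (adjusted p = 0.158), 1.23 without control replicate 2 (0.217), 1.22 and 0.80 without 24 h replicates 1 and 2 (0.0512 and 0.343), and 1.03 with DESeq2's size factors (0.0504), none of which passed. At +32.2 kb the change from 24 to 72 h was -0.74 without 24 h replicate 1 (0.324), and -1.22 and -0.95 without 72 h replicates 1 and 2 (0.168 and 0.211).

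Axl, the Gas6 receptor, carried a pair of peaks inside the gene, both in all 4 lists. The peak 5 kb from its 5′ end (chr7:25783603-25784264) held 77 and 79.5 CPM untreated, against 135 and 112 after 24 h, 67.5 and 95.8 after 48 h, and 92.5 and 91 after 72 h. It rose at 24 h (0.63, SE 0.195, adjusted p = 0.0212), while its changes of 0.02 (48 h) and 0.22 (72 h) did not pass. The 24 h change was 0.62 without control replicate 1 (0.0811), 0.68 without control replicate 2 (0.182) and 0.51 without 24 h replicate 1 (0.178), and did not pass in these fits. The peak 7 kb in, the higher of the pair, held 102 and 147 CPM in the controls and 108 to 155 CPM after treatment, and its mean change was -0.06 (SE 0.149, adjusted p = 0.823).

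Igf1r, the receptor of insulin-like growth factor, held the highest peak of all 43 by mean CPM and no call. That peak, 69.3 kb into the gene (chr7:68020770-68022330), held 176 and 187 CPM untreated, against 242 and 226 after 24 h, 179 and 221 after 48 h, and 185 and 213 after 72 h. It spans 1561 bp, and its mean of 130 CPM per kb lay below the 150 of Axl +7.0 kb. The 24 h libraries stood above both controls, but the change of 0.36 (SE 0.145, adjusted p = 0.0961) did not pass. The other 4 tested peaks of Igf1r ran from 3.14 to 52.3 CPM over all libraries. The peak beside its start, 0.3 kb upstream, held 8.53 to 18.5 CPM and was in the 72 h list alone.

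The fibroblast growth factor receptors carried few peaks. Fgfr1 had 1 peak, inside the gene and 18.7 kb from its nearest boundary, with 24.8 and 24.5 CPM untreated, against 23.9 and 30 after 24 h, 23.8 and 13.7 after 48 h, and 11.6 and 18.8 after 72 h. Its change at 72 h was -0.74 (SE 0.496, adjusted p = 0.335). The peak was in the 24 h list alone. Fgfr2 spans 104 kb, and the nearest consensus peak lay 253 kb from it.

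**Figure D3:**
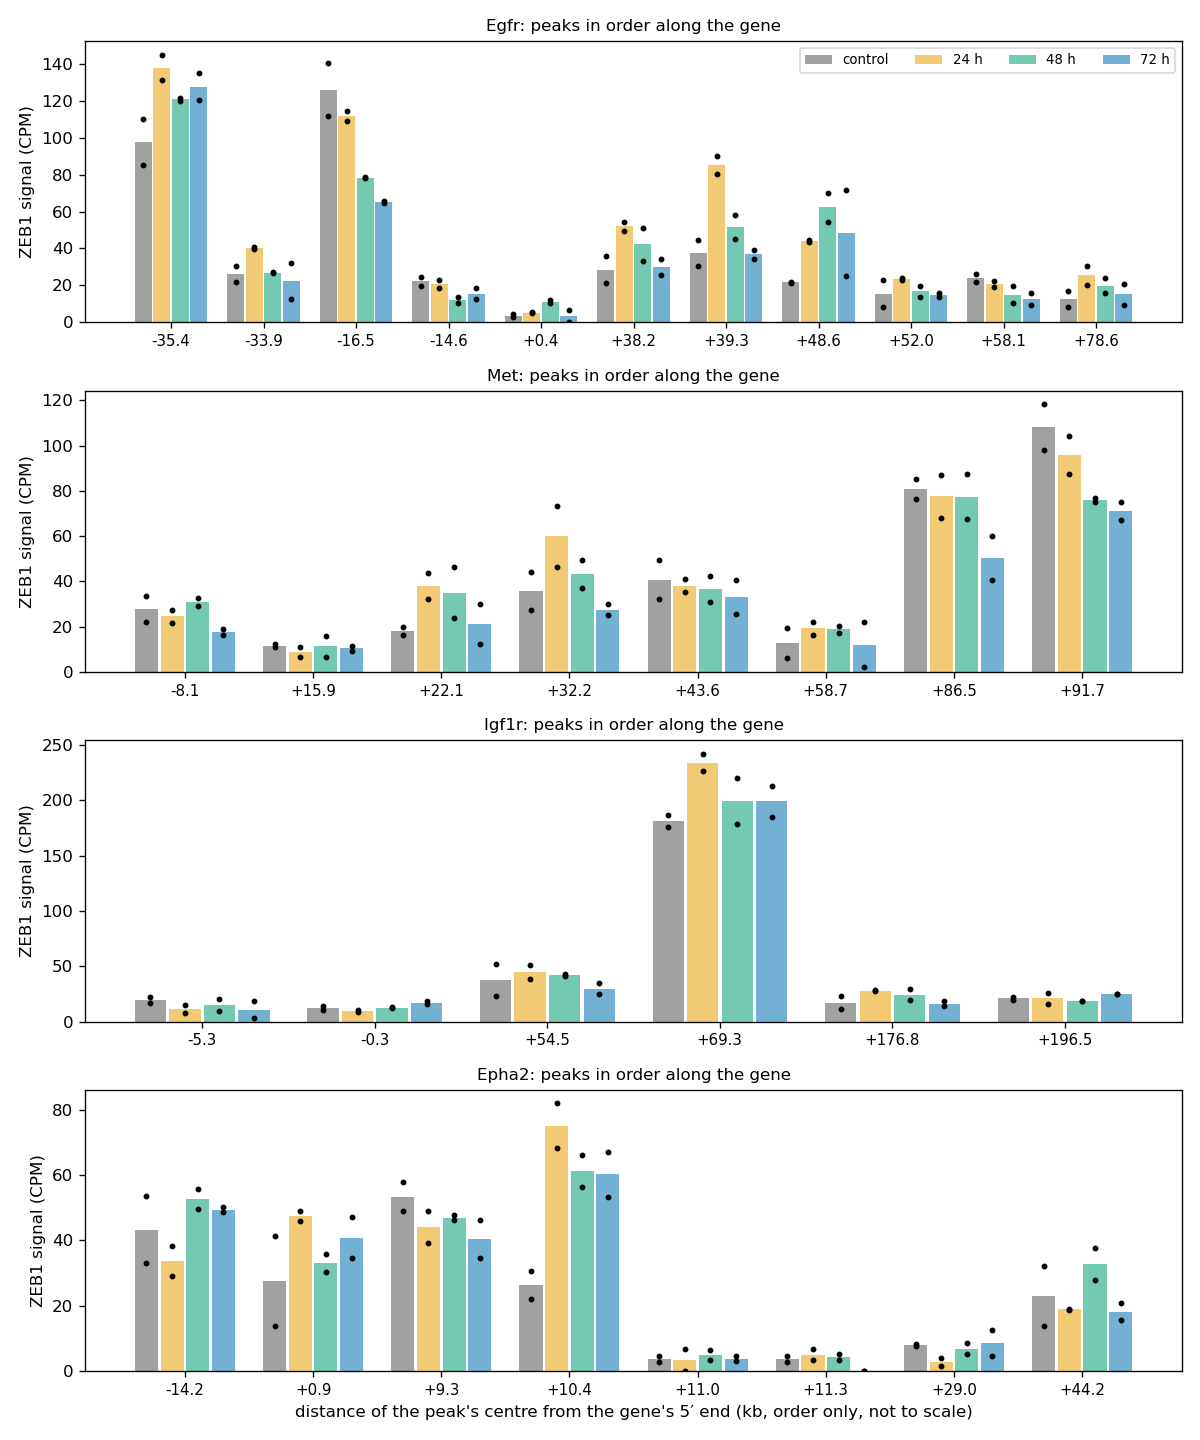
ZEB1 signal in CPM (y axis, from 0) at each peak of Egfr, Met, Igf1r and Epha2, in order along the gene, with the distance of the peak's centre from the 5′ end in kb on the x axis, drawn in order and not to scale. Bars are means of 2 libraries and points are the libraries. The Egfr peak at -16.5 kb has its highest bar in the control and that at +39.3 kb at 24 h, a difference that was not tested. The Igf1r peak at +69.3 kb is the highest.

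Ddr1, a receptor for collagen, had 4 peaks, among them the one at an internal start whose promoter is printed above. That peak (chr17:35700437-35700817), with its centre 37 bp from the start, held 2.75 and 4.59 CPM untreated, against 10.2 and 9.55 after 24 h, 11.9 and 17.1 after 48 h, and 23.1 and 12.5 after 72 h. All treated libraries lay above both controls, at 1 and 3 counts in the controls and 4 to 10 counts in the treated libraries. It rose at 72 h (2.18, SE 0.773, adjusted p = 0.0402) and over the mean of the times (1.75, SE 0.665, adjusted p = 0.0459). The peak was in the 48 and 72 h lists alone, so it is chosen partly for being higher after treatment. The ratio of summed counts was 4.74 at 72 h (95% exact interval 1.49 to 19.8) and 3.43 for all treated libraries (1.25 to 13.1), which covers counting error only. Over all the alternative fits named with the processing, the change ran from 1.62 to 2.66 at 72 h and from 1.53 to 2.24 for the mean. The calls held in some of these fits and not in others. Both calls ended without control replicate 1 (0.126 at 72 h, 0.192 for the mean), control replicate 2 (0.163, 0.249) or 72 h replicate 1 (0.418, 0.131), and with replicate pairs summed (0.0560, 0.0634). The mean was also lost without 24 h replicate 1 (0.0601) or 2 (0.0561) or 48 h replicate 2 (0.0713).

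The neighbour 4.6 kb inside the 5′ end of Ddr1, beside the same start, held 33 and 48.9 CPM untreated, against 47.7 and 70.9 after 24 h, 51.6 and 56.5 after 48 h, and 39.3 and 25.1 after 72 h. Its changes did not pass at any time. The highest Ddr1 peak, 6.6 kb inside, held 68.8 and 56.6 CPM in the controls and 46 to 75.3 CPM after treatment, with a mean change of -0.02 (SE 0.209, adjusted p = 0.951).

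Epha2, the ephrin receptor, held the rise with the smallest edgeR adjusted p among the receptor peaks. The peak 10.4 kb into the gene (chr4:141311190-141312059) held 22 and 30.6 CPM untreated, against 68.2 and 81.9 after 24 h, 66.1 and 56.5 after 48 h, and 67 and 53.3 after 72 h. Every treated library lay above both controls. The authors' deposited lists held this peak at 24 h (fold over IgG 4.47) and 72 h (5.55), and not in the control or at 48 h. It is thus chosen partly for being higher after treatment. It rose by 1.45 at 24 h (SE 0.281, adjusted p = 1.15e-04), 1.16 at 48 h (SE 0.294, adjusted p = 0.00419), 1.15 at 72 h (SE 0.335, adjusted p = 0.014) and 1.26 over the mean of the times (SE 0.258, adjusted p = 1.92e-04). The 24 h and mean calls held without each library in turn. At 48 h the change was 1.49 without control replicate 2 (0.0531) and 1.03 without 48 h replicate 1 (0.0700). At 72 h it was 0.98 and 1.47 without control replicates 1 and 2 (0.0768 and 0.0664) and 0.94 without 72 h replicate 1 (0.221).

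Of its close neighbours 1 was tested and was not called. That peak, 9.3 kb into Epha2, held 57.8 and 48.9 CPM in the controls and 34.5 to 49.1 CPM after treatment, a mean change of -0.23 (adjusted p = 0.522). Peaks at 11.0 and 11.3 kb were not tested, held at most 6.82 CPM and were in the control list alone. Near the start, the peak 0.9 kb inside held 41.3 and 13.8 CPM untreated, against 46 and 49.1 after 24 h, 30.4 and 35.9 after 48 h, and 34.7 and 47.1 after 72 h. Its rise at 24 h (1.01, SE 0.331, adjusted p = 0.031) rests on the second control, without which the change was 0.22 (adjusted p = 0.823). Without 24 h replicates 1 and 2 it was 1.06 and 0.97 (0.0695 and 0.150). No difference between neighbouring peaks was itself tested.

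The peaks most like Epha2 +10.4 kb over the 8 libraries, by Pearson's r of log2 CPM among 16207 tested peaks assigned to other genes, were near or in Epb41 (0.995), Cyld (0.981) and 2510002D24Rik (0.981). These are the highest of many correlations and carry no test.

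Counted over the receptors, calls at 24 h were all rises and all inside genes. Of 35 tested peaks 7 were higher than control at 24 h and 0 lower, which is 20% of them, where edgeR called 11.0% of all tested peaks, 6.44% higher and 4.61% lower. The 7 were the Egfr peaks at +38.2, +39.3 and +48.6 kb, Epha2 at +0.9 and +10.4 kb, Met at +22.1 kb and Axl at +5 kb. The median change of the 35 was 0.39 at 24 h, against -0.01 over all tested peaks. A peak needs only 1 of the 4 lists to be in the consensus. Peaks absent from the control list are thus chosen partly for being higher after treatment. Of the 43 peaks 62.8% were in the control list, against 78.7% of all. Of the 7, Egfr +48.6 kb, Epha2 +10.4 kb and Met +22.1 kb were not in it. The part of this choice in the median was not tested. At 48 h 2 rose and 1 fell, where 11.5% of all peaks were called (6.09% higher, 5.41% lower), with a median of 0.11 against 0.00. At 72 h 3 rose and 1 fell, where 12.6% of all peaks were called (6.84% higher, 5.74% lower), with a median of -0.13 against 0.00. Over the mean of the 3 times 3 rose and 1 fell, where 16.8% of all peaks were called (8.27% higher, 8.53% lower), with a median of 0.10 against -0.01. At 48 h the rises were Egfr +48.6 kb and Epha2 +10.4 kb, joined by Ddr1 +4.1 kb at 72 h and over the mean. None of these was in the control list, so all were chosen partly for being higher after treatment. From 24 to 72 h 3 fell and 0 rose, where 4.71% of all peaks were called (2.32% higher, 2.39% lower). Of the 35 changes 27 were below 0 and 8 above, where 49.7% of all were above 0, with a median of -0.41 against -0.01. Egfr -33.9 and +78.6 kb, Met +58.7 kb and the Fgfr1 peak were in the 24 h list alone, so they are chosen partly for being high then. Egfr +48.6 and +52.0 kb, Met +22.1 and +32.2 kb, Igf1r +176.8 kb and Epha2 +44.2 kb were in the 24 and 48 h lists alone. These too are chosen partly for being high at 24 h, and Met +32.2 kb is among the called falls. Egfr +39.3 kb, another called fall, was in every list but that of 72 h. The part of this choice in the falls was not tested. The share at 48 h was 8.57% of the 35, and at 72 h and over the mean 11.4%, none above the share of all peaks. The 25 tested peaks inside their gene had a median of 0.49 at 24 h and the 10 outside -0.20, a difference that was not tested. Several peaks share a gene and are not independent. Each comparison with control uses the same 2 control libraries, and the last uses the 24 h libraries of the first.

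In all 10 of 35 peaks (28.6%) were called in at least 1 comparison, where 26.4% of all tested peaks were, at 5 genes (Egfr, Met, Axl, Ddr1 and Epha2). Of the 10, 9 lay inside their gene, as did 25 of the 35 tested. Of the 21 calls, 20 had libraries that did not overlap between the groups, as did 94.7% of calls over all peaks and 43.1% of the comparisons without a call. DESeq2 called 0 of these peaks in each comparison, and gave an adjusted p to 15 at 24 h, 16 at 48 h, 19 at 72 h, 22 over the mean and 10 from 24 to 72 h. Its unadjusted p was below 0.05 for 3 at 24 h, 3 at 48 h, 4 at 72 h, 4 over the mean of the times and 3 from 24 to 72 h. Its adjusted p for Epha2 +10.4 kb was 0.0618 at 24 h and 0.0570 over the mean. A count of 7 at 24 h became 2 without control replicate 2 or without 24 h replicate 1, 3 without 24 h replicate 2 and 4 without control replicate 1. Without control replicate 2 the count was 0 at 48 h, 1 at 72 h and 1 over the mean. Without 72 h replicate 1 it was 0 at 72 h and 2 over the mean. From 24 to 72 h it was 1 without either 24 h library and 0 without either 72 h library. Calls over all peaks dropped too, at 24 h from 2341 to 508 without control replicate 2, 1419 without control replicate 1, and 1282 and 1059 without 24 h replicates 1 and 2. They dropped from 2437 to 517 at 48 h without control replicate 2, and from 2666 to 938 at 72 h without 72 h replicate 1.

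**Figure D4:**
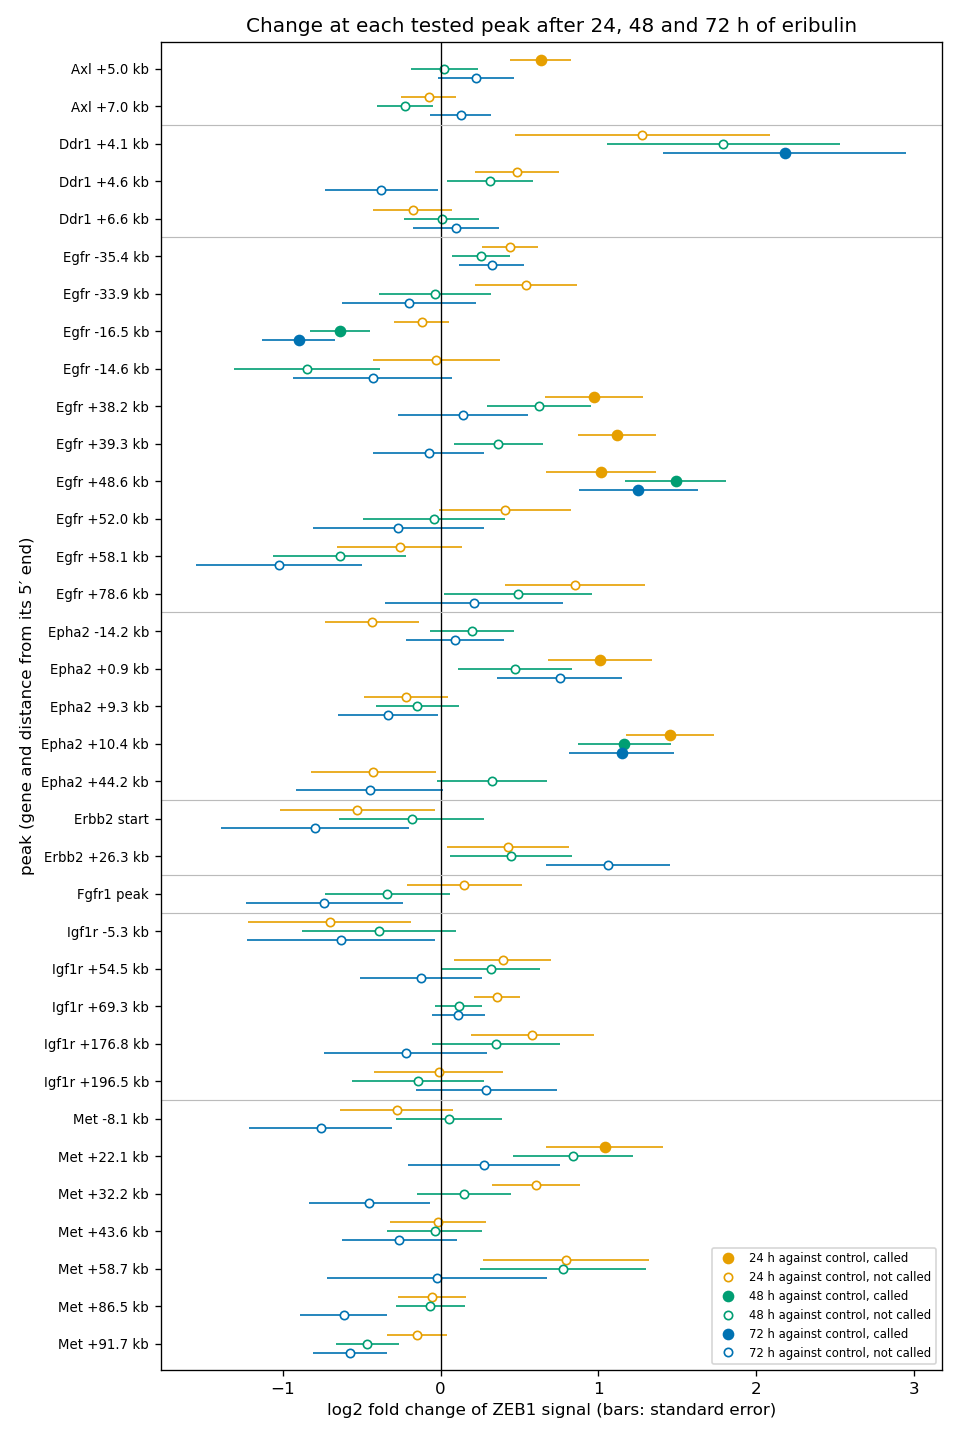
Fitted log2 fold change of ZEB1 signal against control (x axis, bars are standard errors) at 24, 48 and 72 h for the 35 tested receptor tyrosine kinase peaks (rows). Filled points are calls at an edgeR adjusted p below 0.05. The filled points at 24 h are all to the right of 0, and Egfr -16.5 kb is filled to the left at 48 and 72 h.

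Genes around the receptors moved in both directions. Of 43 other receptor tyrosine kinases, 18 had a peak and 34 peaks were tested, and over the mean of the times 1 rose, near Mertk (1.13, adjusted p = 0.0347), a relative of Axl, and 4 fell, with the smallest p at Ddr2 (-1.38, adjusted p = 1.32e-04), the other collagen receptor. Of 22 genes of ligands 16 had a peak, and of 45 tested peaks 3 rose and 5 fell. At 24 h 6 ligand peaks were higher and 2 lower (17.8%, against 11.0% of all), and among the other receptors 1 was higher and 1 lower (5.88%). Named by the smallest p over the mean, a peak in Igf1 rose (0.83, adjusted p = 0.00548) and a peak in Nrg1, whose product binds Erbb3, fell (-1.46, adjusted p = 3.74e-05).

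Downstream, 21 of 27 adaptor and kinase genes had a peak, and of 43 tested peaks 4 rose and 1 fell, and the fall was in Src (-0.34, adjusted p = 0.0334), a kinase that many receptors activate. Of 24 genes of feedback inhibitors and receptor turnover 22 had a peak, and of 89 tested peaks 5 rose and 3 fell. Both smallest p-values there were at Errfi1, a direct inhibitor of Egfr, whose peak 2.9 kb from the gene's boundary rose (0.75, adjusted p = 7.24e-05) while the peak 16.2 kb away fell (-0.77, adjusted p = 0.00348). At 24 h the adaptors and kinases had 3 higher and 0 lower (6.98%), and the feedback genes 4 and 4 (8.99%). Over the mean the shares called were 14.7%, 17.8%, 11.6% and 8.99% in the order given, where 16.8% of all peaks were called. The medians of the 4 lists over the mean lay between -0.02 and 0.07, against -0.01 over all peaks. From 24 to 72 h the medians were -0.23 for the other receptors and -0.19 for the ligands. They were 0.0123 for the adaptors and kinases and 0.0047 for the feedback genes. The 35 receptor peaks had -0.41 in that comparison, and all peaks -0.01. Without control replicate 2, Mertk (0.278), Igf1 (0.168), Nrg1 (0.187), Src (0.0999) and the fall at Errfi1 (0.308) did not pass. Mertk and Src were also lost without control replicate 1 (0.140 and 0.287) and without 48 h replicate 1 (0.0597 and 0.0648), Mertk without 24 h replicate 1 (0.0521) or 72 h replicate 2 (0.0835), and Src without 72 h replicate 1 (0.0689). Among the peaks named from these lists DESeq2 called the rise at Errfi1 (adjusted p = 0.0387) and gave no adjusted p for Mertk.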

How the data were processed

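ZEB1 CUT&RUN libraries were sequenced paired-end at 76 bp with the EpiCypher kit, per the labels' protocols. The submitters' processing notes list, with no role, deepTools, featureCounts and Picard (no version), MACS2 2.1.1, bedtools 2.30.0, Bowtie2 2.2.6, cutadapt 2.4 and bcl2fastq 2.20.0.422, and the build GRCm38 (mm10). The authors deposited a raw count per library for each consensus peak, and peak lists with a fold over IgG (a ratio) and −log10 of q, per the file headers and layout. Peak names in the lists give replicate 1 against IgG.

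From the counts, edgeR 4.0.16 (R 4.3.3) fitted all 8 libraries with 1 mean per group (filterByExpr, TMM, robust quasi-likelihood F-test, 4 residual degrees of freedom) over 21192 of 23623 peaks, with Benjamini-Hochberg adjustment over all of them and calls below 0.05. The script was tested on simulated data. Gene positions came from RefSeq GRCm38.p6. Full values are given for every called receptor peak and each gene's highest peak, and for each other list the called peak of smallest p in each direction. A peak that this rule names is not reported here. Alternatives were DESeq2 1.42.0, its size factors in edgeR, no filter, a replicate block, each library left out, a 10 kb reach, and, chosen after seeing the data, pairs with a chi-square ratio below 1 summed. The members and lists were chosen with earlier results of these data known. No peak sequence or GC content was used here.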

Additional observations from a re-analysis of the deposited data

Results flagged for a closer look

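At 3 peaks the change after 72 h differed from the change after 24 h by the direct edgeR comparison of the 72 h with the 24 h libraries (2 against 2). These were Egfr -16.5 kb (-0.78, adjusted p = 0.0286), Egfr +39.3 kb (-1.20, adjusted p = 0.00515) and Met +32.2 kb (-1.06, adjusted p = 0.0442). In each case both 72 h libraries lay below both 24 h libraries. Met +32.2 kb was in the 24 and 48 h lists alone, so it is chosen partly for being high at 24 h. DESeq2 called none of the 3 in this comparison, where 3 receptor peaks had an unadjusted p below 0.05.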

How the results depend on the processing

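In 21 called results, 192 of 267 values under alternatives kept direction and call, 75 kept direction but no longer passed, and 0 reversed. The 267 include fits without a library of a group that the comparison does not use. DESeq2 results with no adjusted p are not among them. Of 7 highest peaks without a call, none of 90 values passed. DESeq2 called 0 receptor peaks in each of the 5 comparisons (unadjusted p below 0.05 for 3, 3, 4, 4 and 3), and 90, 76, 115, 231 and 5 of all peaks, where edgeR called 2341, 2437, 2666, 3559 and 999. Leaving out 1 library at a time gave 2 to 7 calls at 24 h, 0 to 3 at 48 h, 0 to 4 at 72 h, 1 to 4 for the mean of the times and 0 to 3 from 24 to 72 h, against 7, 3, 4, 4 and 3. Where this leaves an arm with 1 library, it is assumed to vary like the others. The replicate differences correlated between groups at -0.0302 to 0.001, so the numbers are not shown to pair libraries. With the replicate block the counts were 7, 3, 4 (3 of them shared), 3 and 3, and Ddr1 +4.1 kb gave 0.0529 at 72 h and 0.0608 for the mean. Summed pairs gave 6, 3, 3, 3 and 2, with Met +22.1 kb at 0.0558, Met +32.2 kb at 0.0547 and Ddr1 +4.1 kb at 0.0560 and 0.0634. A reach of 10 kb kept 37 of 43 peaks and dropped Egfr -16.5 kb, the only peak called lower than control. Depth limits the peaks of few counts most, such as Ddr1 +4.1 kb.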
